A study of Mus musculus with 56 samples.

Results

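Transcripts of the granin family were examined in 56 single-cell (SC) libraries of primary mouse pituitary cells. The family was taken as 5 genes, *Chga*, *Chgb*, *Scg2*, *Scg3* and *Vgf*, chosen by symbol out of the 47069 genes in the deposited table. Whole pituitaries had been taken from C57BL/6 females, 10 to 12 weeks old and randomly cycling, with 5 pituitaries pooled to a sample, and the dispersed cells had been grown untreated for 4 days, trypsinized and moved into RNA-Best, which keeps cells and their RNA intact until an assay. The cells were filtered and separated on a Fluidigm C1 chip for small cells, so large cells may be missing, and cDNA was made with SMART-Seq v4 and ERCC spike-ins. The labels name 1 kind of culture and no separate animals, so the 56 wells form 1 sample, no test was made, and no difference has a replicate check.

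Granins are acidic proteins that are packed with peptide hormones into the dense-core secretory granules of endocrine cells and neurons, where they help the cargo to condense and the granule to form. Several are cut into bioactive peptides when the granule matures. In the anterior pituitary they occur in all hormone lineages, with different proportions by cell type, and gonadotrophs are known for their secretogranin II.

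Depth differed widely and touches every value. Gene counts ranged from 357 to 12563300 per well, 46 wells had at least 100000, and B6 and H10 had under 2000. *Prl*, *Gh* and *Pomc*, which mark hormone cells of the pituitary, were detected in 56 of 56 wells. Spike-ins took from 0.144% to 74.9% of counts. A share of 30% or more occurred in 5 of 29 wells in plate columns 1 to 3 and 7 to 9 and in 15 of 27 wells in plate columns 4 to 6 and 10 to 12; the labels do not say what these columns are. The 15 wells also resembled each other more than other wells did: over 7716 other genes at 10000 counts per well, the median rho of a pair was 0.42, against 0.30 among the 10 wells of the same columns with enough counts and fewer spike-ins, 0.25 among 24 such wells of the other columns and 0.29 among the 5 wells there with 30% or more. *Prl* was the highest hormone in each of the 15 wells, whereas *Pomc* or *Gh* was highest in some of the 10 and of the 24. These groups thus also differ in their leading hormones. C10 and C11, both among the 15, had nearly the same granin counts, such as 1530 and 1505 for *Chgb*, and results are also given without C11. Whether wells shared material was not tested.

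All 5 granins are protein-coding genes, at these GRCm38 positions in GENCODE M21. *Chga* (ENSMUSG00000021194.5) lies on the plus strand of chromosome 12 from 102554969 to 102565028 and encodes chromogranin A, which takes part in granule formation. *Chgb* (ENSMUSG00000027350.8), for chromogranin B, lies on the plus strand of chromosome 2 from 132781278 to 132795079. *Scg2* (ENSMUSG00000050711.7), for secretogranin II, the precursor of secretoneurin, lies on the minus strand of chromosome 1 from 79434669 to 79440120. *Scg3* (ENSMUSG00000032181.6), for secretogranin III, which binds chromogranin A and cholesterol in the granule membrane, lies on the minus strand of chromosome 9 from 75643189 to 75684056, where *Gm37871* overlaps it on the other strand. *Vgf* (ENSMUSG00000037428.14), for a precursor of several neuropeptides that nerve growth factor induces, lies on the plus strand of chromosome 5 from 137026392 to 137033351. No overlapping gene was annotated for the other 4. Their summed exons are alike in length, from 2515 bases for *Scg2* to 2973 bases for *Vgf*.

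Letters near the starts are given because several granins are known as targets of cAMP signalling through the cAMP response element (CRE), so that the element is a feature the members can share. From RefSeq promoter windows (GRCm38.p6), which were matched for 4 of the 5 genes, 30 bases around the site are printed 5′ to 3′ on the strand of the gene, at chr12:102554886-102554915, chr2:132781559-132781588, chr1:79440076-79440105 and chr9:75684068-75684097 in the order shown. Capitals mark the CRE, TGACGTCA, or where it is not whole its first letters, TGACG.
Chga: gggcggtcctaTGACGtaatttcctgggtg
Chgb: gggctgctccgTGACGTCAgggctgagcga
Scg2: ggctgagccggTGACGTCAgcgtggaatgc
Scg3: cgctgggtcgcTGACGccatcctcacgcct
The whole CRE began 72 bases before the RefSeq start of *Chgb* and 68 bases before that of *Scg2*. M21 sets longer first exons there, and both sites fall within an annotated UTR of that release, for *Scg2* in 1 of 2 transcripts. The CRE was found in 2 of the 4 windows, and in 1.79% of 32851 mouse promoter windows of 250 bases before and 50 bases from the start, searched on both strands. The 5 letters TGACG, which each CRE holds on both strands, were found in 4 of 4 windows, at 44 bases before the start of *Chga* and 30 bases before that of *Scg3*, and in 20.8% of all windows. The letters GGGCGG were found for *Chga* and *Chgb*, and in 35.7% of all windows. The motifs were chosen with the sequences seen, and a match is a description of letters only.

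*Scg2* and *Chgb* were the main granins of these cells, *Scg3* and *Chga* were lower, and *Vgf* was patchy. Levels between genes were compared in TPM, which divides by exon length, here by the summed exons of M21. The median per well was 462 TPM for *Scg2*, 425 TPM for *Chgb*, 67.9 TPM for *Scg3*, 39.2 TPM for *Chga* and 7.03 TPM for *Vgf*. The mean log2(CPM + 1), where CPM is the count scaled to 1000000 gene counts without spike-ins, was 9.57 for *Scg2* (SD over 56 wells 2.28), 9.63 for *Chgb* (1.92), 6.32 for *Scg3* (2.5), 5.51 for *Chga* (3.25) and 3.60 for *Vgf* (3.16). *Chgb* and *Scg3* were the only neighbours in this order that differed by more than the SDs over wells. *Chgb* was the leading granin by TPM in 28 wells, *Scg2* in 26, *Chga* in H4 and *Vgf* in B12, and *Scg3* in 0. These counts differed with the spike-in share: *Scg2* led in 23 and *Chgb* in 11 of 36 wells with under 30% of spike-ins, and *Chgb* in 17 and *Scg2* in 3 of 20 wells with 30% or more.

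All further levels are in CPM unless TPM is named. *Chgb* was detected, at 1 CPM or more, in 56 of 56 wells (exact Clopper-Pearson 95% interval 93.6% to 100%), with a lowest level of 13.1 CPM in H4, a middle level of 916 CPM and a top level of 9765 CPM in A9. *Scg2* was detected in 55 wells (98.2%, 90.4% to 100%), with a median of 835 CPM and 12252 CPM in E3. Its only well without a count was B6, the shallowest. Intervals cover counting error only, and reads without molecular identifiers are not independent molecules.

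*Scg3* was detected in 52 wells (92.9%, 82.7% to 98.0%) and ranged up to 765 CPM in D11, around a median of 125 CPM. It had no count in B6, H10 and E8. E8 was deep, with 1314330 gene counts, so that 0 counts there allow up to 2.28 CPM, and it was a well led by *Pomc*. *Chga* was detected in 47 wells (83.9%, 71.7% to 92.4%), with a median of 76.7 CPM, and reached 2700 CPM in D7. *Vgf* was detected in 36 wells (64.3%, 50.4% to 76.6%), with a median of 12.8 CPM and 17 wells at 0. The highest *Vgf*, 593 CPM in H10, rests on 1 count, and B12 with 527 CPM was the highest of the deep wells.

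**Figure D1:**
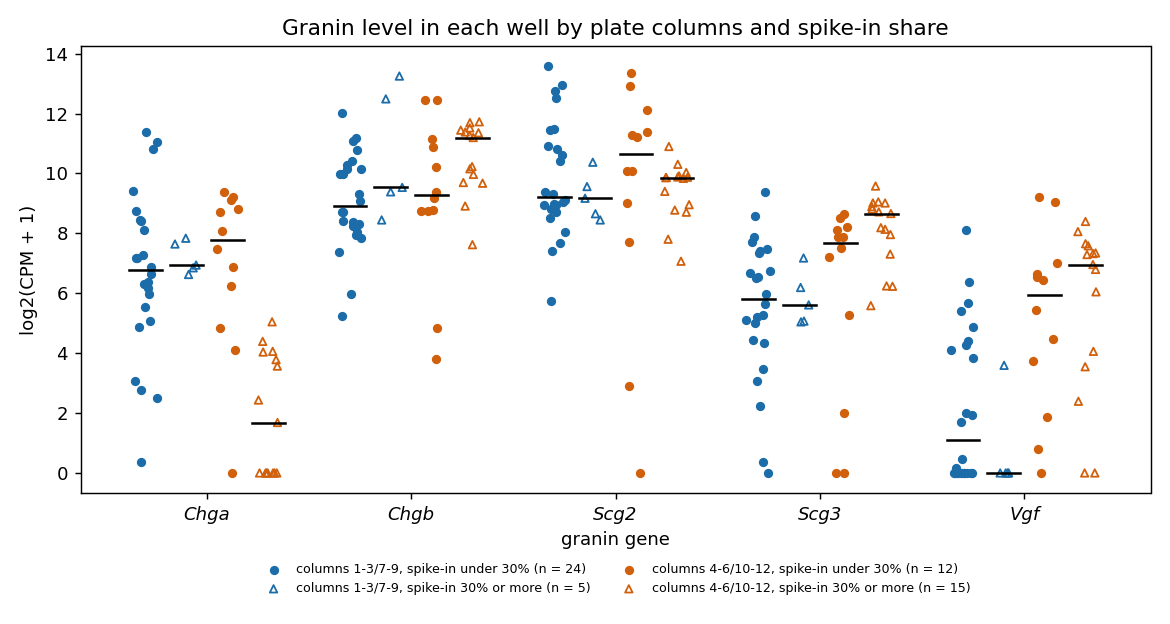
Level of each granin in each of the 56 wells as log2(CPM + 1), with 1 point per well, colours for plate columns, open triangles for wells with a spike-in share of 30% or more, and a black line at the median of each class. *Chga* sits at 0 to 32.1 CPM in the 15 wells of columns 4 to 6 and 10 to 12 with many spike-ins, and at 97.9 to 228 CPM in the 5 such wells in the other columns, a difference in mean that 1.10% of genes exceeded in size.

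The 5 granins together took a median of 0.296% of gene counts (range 0.0139% in H4 to 1.28% in E3). Without *Prl*, *Gh* and *Pomc* in the denominator the median was 0.489%. All 5 were detected in 29 of 56 wells (51.8%, 38.0% to 65.3%), 4 in 23 wells, 3 in 2 wells and fewer in the remaining 2. At equal depth, with 46 wells thinned to 100000 counts and a limit of 1 count, all 5 were found in 20 wells (43.5%, 28.9% to 58.9%), against 28 of the same 46 (60.9%) before thinning at the limit of 1 CPM. These limits are unlike, since 1 count in 100000 is 10 CPM, so the fall does not measure depth alone. At 10 CPM without thinning the share was 37.5% of the 56 wells. In the thinned wells *Chgb* and *Scg2* were found in 46 of 46, *Scg3* in 42, *Chga* in 40 and *Vgf* in 25, which is also the order of the median levels.

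Few wells were low in all granins. H4 had the lowest sum, 139 CPM, with 116 CPM of *Chga*, 13.1 CPM of *Chgb*, 6.45 CPM of *Scg2*, 3.0 CPM of *Scg3* and 0.74 CPM of *Vgf*. It was also the well with the highest summed endothelial markers, 8855 CPM, with *Plvap* at 4885 CPM, *Kdr* at 1681 CPM, *Cdh5* at 1267 CPM, *Emcn* at 1013 CPM and *Pecam1* at 8.93 CPM. It still held 14379 CPM of *Prl*, and the source of this hormone RNA was not tested. Endothelial cells are not known for granins, so its values can be set beside the others: *Chgb* and *Scg2* exceeded its values in every other well but B6, where *Scg2* had no count, while its *Chga* exceeded the median of the 56 wells. The next lowest sums were 180 CPM in A1, 408 CPM in A10 and 486 CPM in H9. H9 was among the deepest wells, with 10664300 gene counts and 573124 CPM of *Prl*, and had 0.28 CPM of *Chga*, 0.28 CPM of *Scg3* and no count of *Vgf* (up to 0.28 CPM), with 316 CPM of *Chgb* and 170 CPM of *Scg2*.

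**Figure D2:**
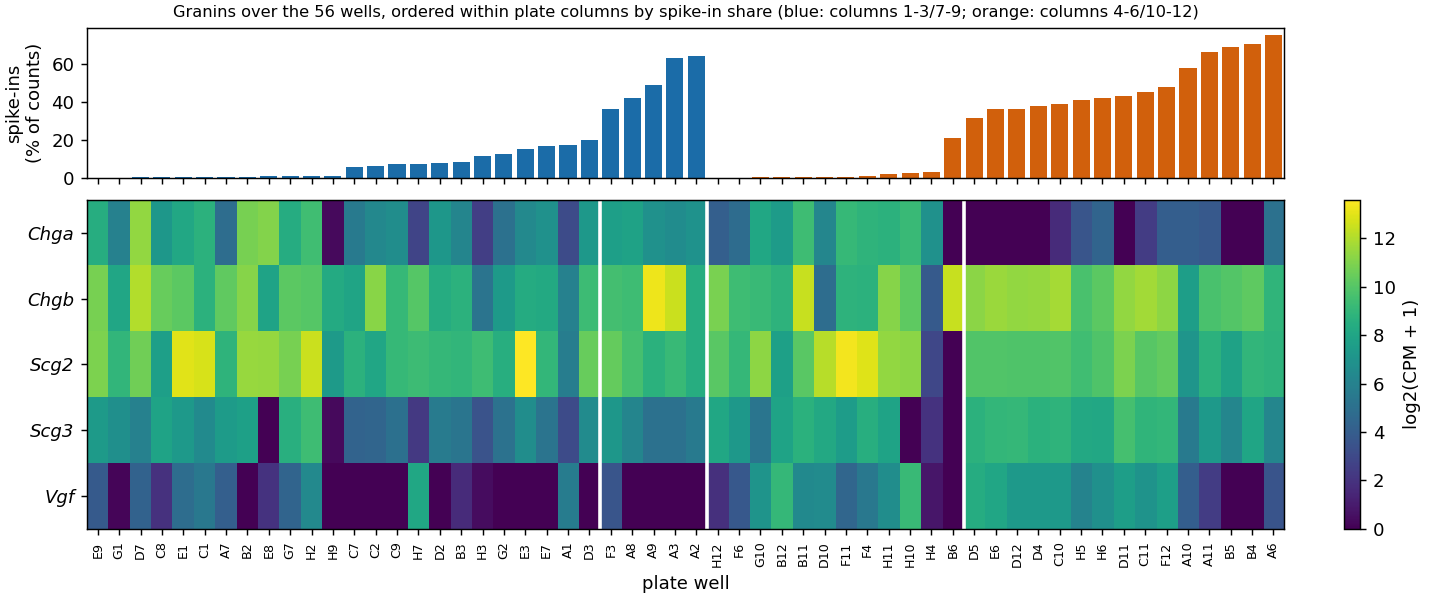
Spike-in share of counts in percent (upper panel, bars from 0) and level of the 5 granins as log2(CPM + 1) (lower panel, colour) in the 56 wells, ordered by spike-in share within each set of plate columns, with white lines between classes. *Vgf* is dark in most wells of columns 1 to 3 and 7 to 9 (29 wells, 14 at 0), and *Chga* is dark in the rightmost 15 wells, 7 of which are at 0.

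Among the granins, *Chga* and *Vgf* differed most between the plate columns, in opposite directions. For *Chga* the mean log2(CPM + 1) was 6.78 ± 2.5 (SD, 29 wells) in columns 1 to 3 and 7 to 9 and 4.14 ± 3.44 (27 wells) in columns 4 to 6 and 10 to 12, a difference of 2.63. For *Vgf* it was 1.96 ± 2.48 and 5.36 ± 2.88, a difference of -3.40. *Scg3* differed by -1.57, *Chgb* by -0.61 and *Scg2* by 0.36, and the median of the 7721 genes compared was -0.13. A difference of 1 or more in favour of columns 1 to 3 and 7 to 9 was shown by 1 of 5 granins and 14.8% of genes, and one in favour of the other columns by 2 of 5 and 25.2% of genes. A larger difference in size than that of *Vgf* was shown by 1.33% of genes, and than that of *Chga* by 5.00%.

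The difference in *Chga* moved with the spike-in share. Among the 20 wells with 30% or more, *Chga* was 97.9 to 228 CPM in the 5 wells of columns 1 to 3 and 7 to 9, with a median of 122 CPM. It was 0 to 32.1 CPM in the 15 wells of the other columns, with a median of 2.21 CPM. The difference was 5.25, which 1.10% of genes exceeded in size. In these wells 19.9% of genes were higher by 1 or more in this direction and 36.8% in the other. How many genes had ranges this far apart was not counted. Summed over wells, 22 *Chga* counts among 2445156 gene counts gave 9.0 CPM in the 15 wells (exact Poisson 95% interval 5.64 to 13.6 CPM) and 167 among 1076362 gave 155 CPM in the 5 wells (133 to 181 CPM). In the 7 of the 15 wells without a *Chga* count, 0 counts allow from 31.2 to 287 CPM, and in 4 of them this limit is above 97.9 CPM, the lowest level of the 5 wells, so that such a level could not be told from 0 there at this depth. Among the 36 wells with fewer spike-ins the difference in *Chga* was -0.21, with means of 6.69 ± 2.74 (24 wells) and 6.90 ± 2.78 (12 wells), and -0.67 without B6 and H10. The part of the plate columns, of RNA amount and of cell type in this difference was not tested.

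*Vgf* was higher in columns 4 to 6 and 10 to 12 among both kinds of well. With under 30% of spike-ins the difference was -2.88 (2.22 ± 2.58 in 24 wells and 5.10 ± 3.01 in 12 wells), which 0.829% of genes exceeded in size; 19.5% of genes were higher by 1 or more in this direction and 11.7% in the other. The median was 1.31 CPM, with 10 of 24 wells at 0, against 64.6 CPM, with B6 alone at 0. With 30% or more it was -4.85, from 4 of 5 wells at 0 to a median of 123 CPM in 15 wells; 36.8% of genes were higher by 1 or more in this direction and 19.9% in the other. The ranges overlapped in both cases, with H7 at 273 CPM in columns 1 to 3 and 7 to 9. After thinning to 100000 counts *Vgf* was found in 12 of 29 wells (41.4%, 23.5% to 61.1%) and 13 of 17 wells (76.5%, 50.1% to 93.2%).

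The granin profile of the 15 wells with many spike-ins in columns 4 to 6 and 10 to 12 is given as a description. *Chgb* led by TPM in 15 of 15 of them, and the log2 ratio of *Scg2* to *Chgb* in TPM was between -2.04 and -0.01 (SD 0.64), while it spread from -2.99 to 5.33 (SD 2.10) in the 24 wells of columns 1 to 3 and 7 to 9 with fewer spike-ins. Their medians were 2354 CPM for *Chgb*, 930 CPM for *Scg2*, 404 CPM for *Scg3*, 123 CPM for *Vgf* and 2.21 CPM for *Chga*. *Prl* was the leading hormone in each of the 15 wells, but not in each of the 24 wells set beside them for the ratio. Of the 5 macrophage markers, summed, the 15 wells had a median of 95.6 CPM (range 0 to 189 CPM), against medians of 0 to 0.50 CPM in the other classes, where the highest value was 89.9 CPM. Among the 15 wells *C1qb* was detected in 11, *Tyrobp* in 10, *C1qa* in 6, *Ptprc* in 2 and *Csf1r* in 0; the part of such RNA in the granin profile was not tested.

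Granins varied together to a limited degree. Over the 56 wells, which share a kind of culture and a C1 workflow and differ in depth, the median of Spearman's rho for the 10 pairs was 0.34, and 5 of 10 pairs had a rho of 0.3 or more, as did 29.4% of pairs among 4650 genes, whose median was 0.20. *Scg3* and *Vgf* had the highest rho, 0.55 (Pearson's r 0.39). *Chga* and *Scg2* had 0.48 (r 0.42), *Chgb* and *Scg3* 0.44 (r 0.35), *Scg2* and *Scg3* 0.44 (r 0.48) and *Scg2* and *Vgf* 0.39 (r 0.33). *Chga* had a rho of -0.15 with *Chgb*, -0.14 with *Scg3* and -0.09 with *Vgf*. Without the 2 wells farthest from the median of the gene named in each pair before the other, the median rho was 0.34 and *Scg3* with *Vgf* had 0.65.

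Within the plate columns the pairs of *Chga* took different signs. In columns 1 to 3 and 7 to 9 (29 wells) all 10 pairs were above 0, with a median of 0.37, and 6 of 10 reached 0.3, against 25.1% of all gene pairs. *Chga* had a rho of 0.67 with *Scg2*, 0.53 with *Scg3* and 0.41 with *Chgb*. In columns 4 to 6 and 10 to 12 (27 wells) 5 of 10 reached 0.3, against 40.6% of all gene pairs, and *Chga* had -0.51 with *Chgb* and -0.40 with *Scg3* but 0.43 with *Scg2*. In the 36 wells with under 30% of spike-ins, 7 of 10 pairs reached 0.3, against 25.7% of all gene pairs, none was below 0, and *Chga* had 0.64 with *Scg2*, 0.40 with *Scg3* and 0.30 with *Chgb*, which lay just under the limit. This did not hold in both sets of columns. The 24 of these wells in columns 1 to 3 and 7 to 9 had no pair below 0 and a median of 0.34. The 12 in the other columns, B6 and H10 among them, had 4 of 10 pairs below 0 and a median of 0.18. In the 20 wells with more spike-ins *Chga* was below 0 with all 4 others, at -0.37 with *Chgb*, -0.23 with *Scg2*, -0.67 with *Scg3* and -0.55 with *Vgf*. *Chga* itself had a rho of 0.49 with the gene counts and -0.55 with the spike-in share over all wells.

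**Figure D3:**
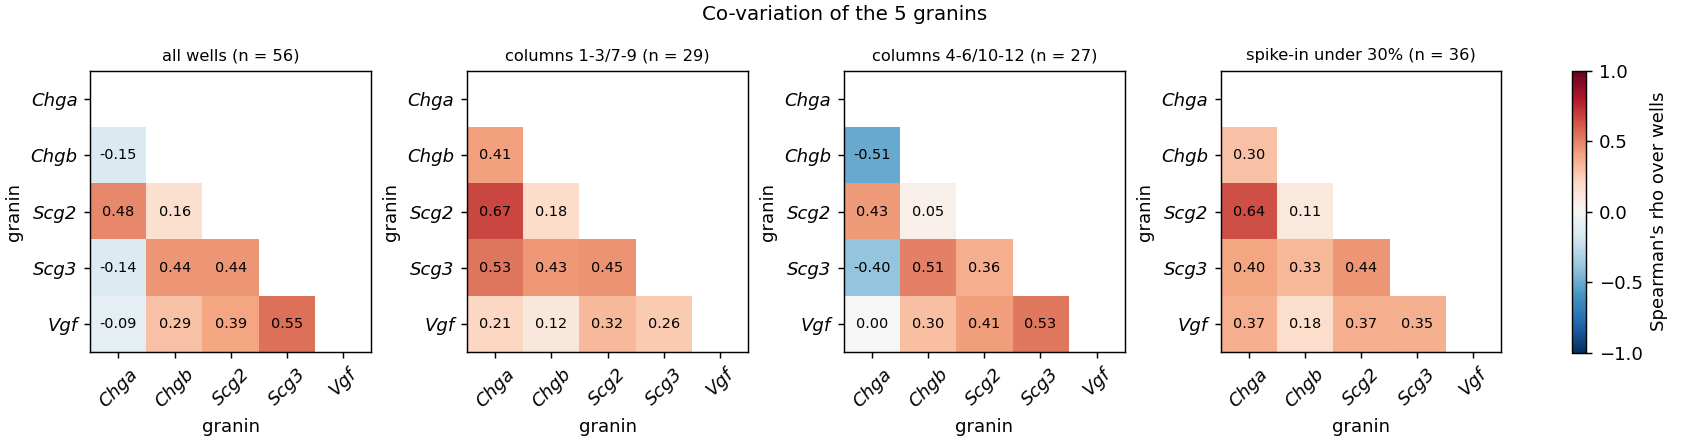
Spearman's rho over wells for the 10 pairs of granins, in all wells, in each set of plate columns and in wells with under 30% of spike-ins; red is above 0, blue below, and each cell shows its value. *Chga* with *Chgb* is 0.41 in columns 1 to 3 and 7 to 9 and -0.51 in columns 4 to 6 and 10 to 12, while *Scg2* with *Scg3* is 0.45 and 0.36.

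The granins were then set beside the hormone with the highest CPM in a well, itself a measured value, so that the comparison is a description. *Prl*, prolactin, led in 47 wells, *Pomc*, the precursor of ACTH, in 5 and *Gh*, growth hormone, in 4. *Scg2* led the granins by TPM in 5 of 5 wells led by *Pomc*, in 3 of 4 led by *Gh* and in 18 of 47 led by *Prl*; *Chgb* led in 28 of those 47. All wells led by *Pomc* or *Gh* had under 30% of spike-ins, and among the 27 wells led by *Prl* with such a share *Scg2* led in 15 and *Chgb* in 11.

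In the wells led by *Pomc*, *Scg2* was 2775 CPM in E8, 2855 CPM in B2, 4415 CPM in D10, 5811 CPM in H2 and 10478 CPM in F11. All 5 were above the upper quartile of the wells led by *Prl*, which was 1180 CPM (median 668 CPM, highest 12252 CPM). *Chga* was 2124 CPM, 1787 CPM, 74.6 CPM, 683 CPM and 554 CPM in the same order. The 3 highest *Chga* levels were thus those of D7, E8 and B2, and D7 was led by *Prl* but also had 70823 CPM of *Pomc*. These 3 wells differed in markers of cells with *Pomc*. *Pax7*, listed for melanotrophs, was detected in 3 wells and was highest in D7, at 37.1 CPM. In E8 *Pax7* and *Pcsk2*, also listed for melanotrophs, summed to 1593 CPM, of which *Pcsk2* was 1568 CPM. *Tbx19*, listed for corticotrophs, was highest in B2, at 1289 CPM. Among the wells led by *Pomc*, H2 also held much RNA of other hormones. It had 59274 CPM of *Pomc* beside 40662 CPM of *Prl* and 41215 CPM of *Cga*, a subunit of the glycoprotein hormones. *Lhb* and *Gnrhr*, listed for gonadotrophs, were 378 CPM and 154 CPM in H2. *Tshb*, listed for thyrotrophs, was highest there, at 49.8 CPM. In E8, B2, D10 and F11 *Cga* was 0 to 81.9 CPM and *Prl* 1216 to 7311 CPM. In the order E8, B2, D10, H2 and F11, *Chgb* was 231 CPM, 2175 CPM, 27.7 CPM, 1013 CPM and 432 CPM, within the range of the other wells. The granin sum was 4904 to 11667 CPM with a median of 7028 CPM, against a median of 2423 CPM (139 to 12763 CPM) where *Prl* led. All 5 wells had under 1% of spike-ins; among wells with a share under 30%, the median *Scg2* where *Prl* led (27 wells) was 526 CPM.

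Over wells, *Chga* had a rho of 0.63 with *Pomc* in columns 1 to 3 and 7 to 9 and -0.14 in columns 4 to 6 and 10 to 12. For *Scg2* and *Pomc* the values were 0.53 and 0.13. Neither value was of like size in both sets of columns.

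*Gh* was 5384 CPM in F4, 10514 CPM in B12 and 12350 CPM in H11, near or below the median of the 56 wells, 11494 CPM, and 307675 CPM in C9. Among the wells led by *Gh*, C9 alone thus had a high *Gh* level, and in F4, B12 and H11 *Gh* led where *Prl* was 2069 to 2286 CPM, against a median of 208371 CPM. Other listed markers did not follow the *Gh* level. *Ghrhr*, listed for somatotrophs, and *Pou1f1*, listed for the Pit-1 lineage, had their highest values of the 56 wells in H11, 14.2 CPM and 695 CPM. *Pou1f1* was 7.37 CPM in C9, 2.84 CPM in B12 and 1.41 CPM in F4. In these 4 wells *Scg2* was 7673 CPM in F4, 2685 CPM in H11, 548 CPM in C9 and 210 CPM in B12. *Vgf* led in B12, at 527 CPM, where *Chgb* had 444 CPM, *Scg3* 233 CPM and *Chga* 177 CPM. F4 also had 1643 CPM of *Lhb*, the beta subunit of luteinizing hormone, with *Gnrhr* at 63.8 CPM and *Nr5a1* at 30.0 CPM, which mark gonadotrophs. Other genes of that lineage were absent or low in F4: *Fshb* was 0 CPM, and *Cga*, the subunit shared by the glycoprotein hormones, was 0.47 CPM.

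The highest *Scg2* of all, 12252 CPM, was in E3, where *Prl* led but where *Lhb* (59401 CPM), *Fshb* (2464 CPM) and *Gnrhr* (3060 CPM) each had their highest value of the 56 wells. E3 also had 57530 CPM of *Cga* but only 1.54 CPM of *Nr5a1*. *Scg2* made up 96.3% of its granin TPM, with 329 CPM of *Chgb*, 100 CPM of *Scg3*, 81.8 CPM of *Chga* and no count of *Vgf* (up to 4.63 CPM). *Lhb* alone did not mark high *Scg2*: H7, G7, A9, A1 and H3 had 783 to 1584 CPM of *Lhb* and 632, 1806, 402, 53.1 and 668 CPM of *Scg2*. E1 (7976 CPM of *Scg2*) and C1 (6990 CPM), both led by *Prl*, came after E3 and F11, with F4 between them, and had 2.2 CPM and 0.44 CPM of *Lhb*; E1 had 60788 CPM of *Pomc* and C1 274 CPM. High *Chgb* was found elsewhere: the highest, 9765 CPM in A9 and 5757 CPM in A3, were in wells led by *Prl* with 49.1% and 63.0% of spike-ins, followed by B11 with 5556 CPM, apart from B6, where 5605 CPM rests on 2 counts.

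**Figure D4:**
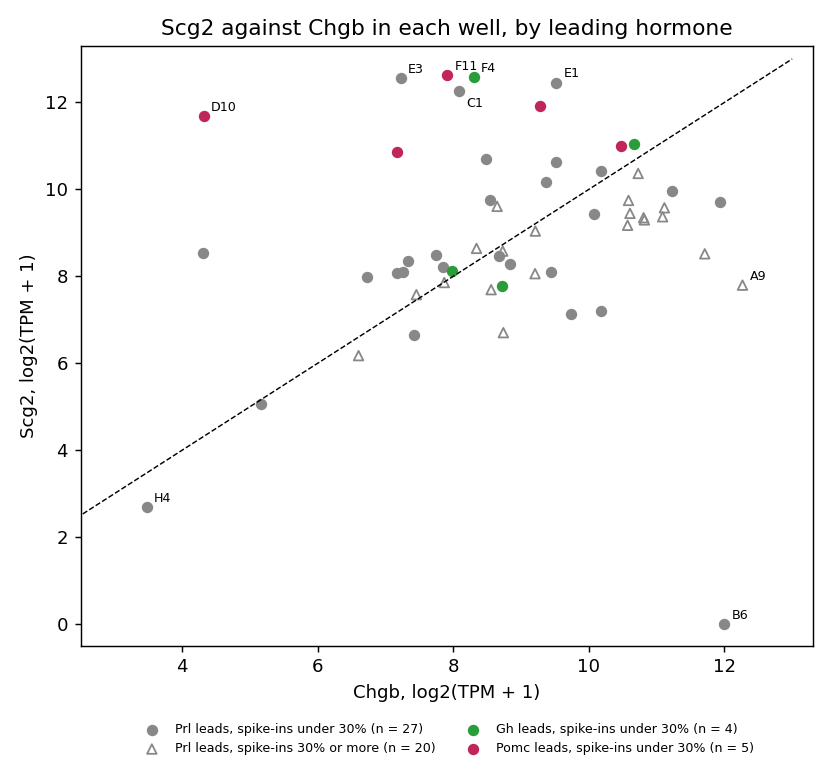
*Scg2* against *Chgb* in each well as log2(TPM + 1), coloured by the leading hormone, with open triangles for wells with a spike-in share of 30% or more and a dashed line where both are equal. The 5 wells led by *Pomc* lie above the line, as do E3 and F4, and 17 of the 20 wells with many spike-ins lie below it.

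Genes of the granule outside the granin family as taken here were compared with the summed granins in the 46 wells with at least 100000 gene counts. Of a list of 26 genes, 13 had a rho of 0.3 or more, as did 26.5% of 5060 genes, and the median was 0.31 against 0.19. The 5060 genes had a mean of at least 10 CPM and were detected in at least 50% of these wells. The 26 were not filtered in this way: 19 of them were detected in at least 50% of the wells, and all 13 were among these 19. After centring on the plate columns the count was 15 of 26 (26.0% of genes), and in 34 wells with under 30% of spike-ins 13 of 26 (28.6%).

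Among the cargo and chaperones 2 of 2 genes reached 0.3. *Scg5*, which encodes 7B2, the chaperone of the convertase PC2, had 0.60 and was detected in 46 of 46 wells, with a median of 683 CPM. *Pcsk1n*, which encodes proSAAS, an inhibitor of PC1/3, had 0.55 and was detected in 35.

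Of the enzymes that cut and trim prohormones 3 of 5 did. *Cpe*, carboxypeptidase E, had the highest rho of the list, 0.70, and was detected in 46 wells with a median of 311 CPM. *Pcsk1*, convertase PC1/3, had 0.58, and *Pam*, which amidates peptides, 0.47. *Pcsk2* (PC2) had 0.30, just under the limit, and its highest value, 1568 CPM, was in E8, the well with the most *Pomc*. *Furin*, a convertase of the Golgi rather than the granule, had -0.15. *Cpe* had a median of 224 CPM where *Prl* led, 1080 CPM where *Gh* led and 1571 CPM where *Pomc* led, and *Pcsk1* 26.2, 415 and 235 CPM. The granin sum is mostly *Scg2* and *Chgb*, and a rho with the sum need not hold for both. *Cpe* had 0.68 with *Scg2* and 0.26 with *Chgb*, and *Pam* 0.53 and 0.12. *Pcsk1n* went the other way, with 0.39 and 0.51, as did *Hid1*, a granule sorting gene, with 0.18 and 0.49.

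Of the genes for granule membrane and sorting 4 of 8 reached 0.3. *Ptprn*, the granule membrane protein IA-2, had 0.63, *Rab2a*, a small GTPase of granule maturation, 0.58, *Cyb561*, the granule cytochrome that supplies electrons for amidation, 0.41, and *Hid1* 0.32. The monoamine transporters *Slc18a1* and *Slc18a2* were detected in 9 and 2 wells, with -0.03 and -0.35. *Cyb561* reached 6658 CPM in E3.

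Of the genes for docking and release 4 of 11 did. *Rab3b*, the Rab3 form known from the anterior pituitary, had 0.55, with 3898 CPM in E3, *Syt4* 0.48, *Syt1* 0.46 and *Rab27a* 0.40. *Rab3a* had 0.16, *Rab3d* 0.07, *Rab27b* -0.09 and *Sytl4* 0.01. Without the 2 wells farthest from the median granin sum, 12 of the 26 reached 0.3, as did 22.6% of all genes, and the median of the list was 0.24 against 0.17.

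**Figure D5:**
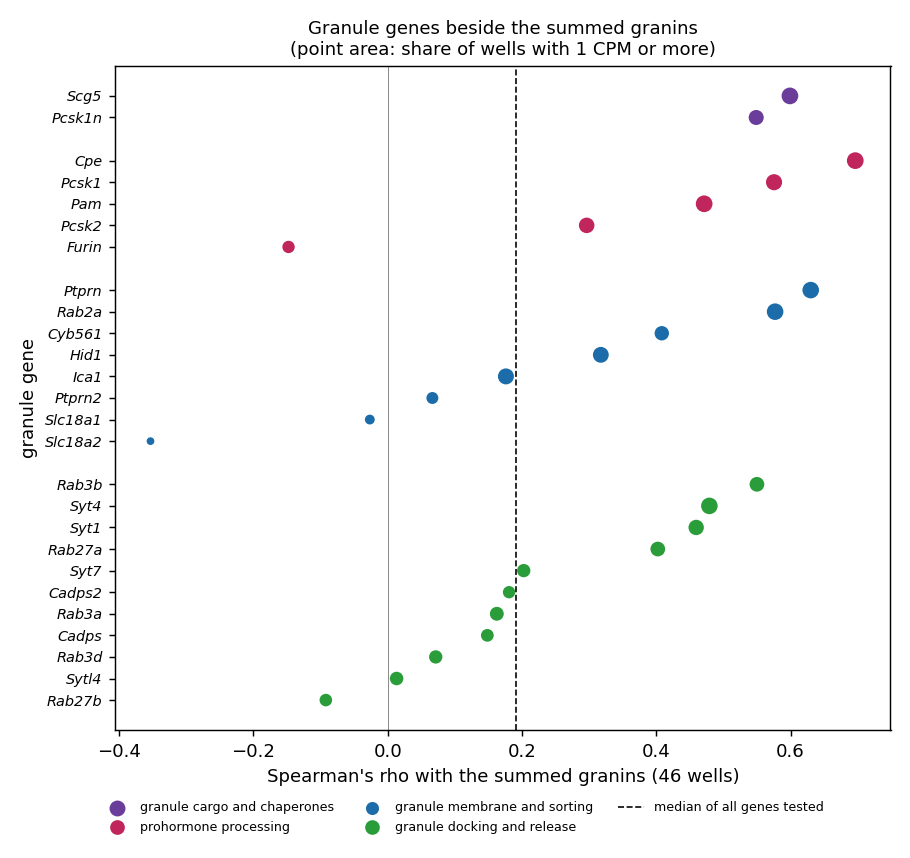
Spearman's rho of each of the 26 granule genes with the summed granins over 46 wells, grouped by role, with point area for the share of wells in which the gene was detected and a dashed line at the median of all genes tested, 0.19. *Cpe*, *Ptprn*, *Scg5*, *Pcsk1* and *Rab2a* lie farthest to the right, from 0.70 to 0.58, and *Slc18a2*, detected in 2 wells, farthest to the left.

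The genes most like each granin were ranked among 5055 genes by rho after centring on the plate columns, in the same 46 wells. For *Chga* they were *Copg1* (0.74), a coat protein of Golgi vesicles, *Pld3* (0.73), *Atp6ap2* (0.70), an accessory subunit of the proton pump that acidifies granules and lysosomes, *Akr1a1* (0.68) and *Pcmt1* (0.68). For *Scg2* they were *Tmem176b* (0.72), *Pqbp1* (0.71), *Fam173a* (0.71), *Snap25* (0.70), a SNARE protein of granule fusion, and *Sars* (0.70). For *Scg3* they were *Sucla2* (0.87), *Hacd3* (0.81), *Prkar1b* (0.80), a regulatory subunit of the cAMP-dependent kinase, *Csnk1a1* (0.79) and *Creb3* (0.78), a membrane-bound transcription factor. For *Chgb* the values were lower, with *Gm10131* (0.66), *Plagl1* (0.63), *Ctsz* (0.61) and *Psmc4* (0.61). For *Vgf* they were *Tmem50a* (0.77), *Vapa* (0.71), *Rnaset2b* (0.68), *Psma7* (0.68) and *Rnaset2a* (0.67). *Rnaset2a* and *Rnaset2b* are near-identical copies, and their counts are uncertain. Roles are given for some of the genes only, as background. Whether granule genes are more common in these lists than among other genes was not tested.

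A rho of 0.3 or more was common: 23.5% of genes had it with *Chga*, 17.7% with *Chgb*, 33.1% with *Scg2*, 46.9% with *Scg3* and 25.0% with *Vgf*. On the same scale *Chga* and *Scg2* had 0.55, which 1.84% of genes exceeded for *Chga*, and *Chgb* and *Scg3* 0.47, which 1.88% exceeded for *Chgb*. *Scg2* and *Scg3* had 0.48, which 6.29% exceeded for *Scg2*, and in the other 7 of 10 pairs 25.3% to 57.0% of genes had a higher rho with the first gene of the pair. Among these 7, *Scg3* and *Vgf*, the highest pair over all 56 wells, had 0.37 here, which 32.7% of genes exceeded for *Scg3*. Each of these shares was counted only for the gene that came first in the order *Chga*, *Chgb*, *Scg2*, *Scg3*, *Vgf*. Shares for the other gene of a pair were not counted, and the tally of pairs could differ with them. In the wells with under 30% of spike-ins, *Sucla2* ranked 1 for *Scg3* with 0.87 and *Copg1* ranked 1 for *Chga* with 0.81. There *Snap25* ranked 1 for *Scg2* with 0.71 and *Tmem50a* ranked 1 for *Vgf* with 0.75. For *Chga*, *Akr1a1* fell to rank 92 and *Atp6ap2* to rank 46 in these wells, and *Atp6ap2* stood at rank 56 without centring. By plate columns, *Snap25* had a rho with *Scg2* of 0.78 in columns 1 to 3 and 7 to 9 and of 0.37 in the other columns.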

How the data were processed

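Polyadenylated RNA was profiled in 56 wells with the Fluidigm C1 (SMART-Seq v4 cDNA, Nextera libraries). The labels do not say whether all wells came from 1 run. Estimated counts for 47069 genes and 92 ERCC spike-ins were deposited in 1 table, unscaled; 33.5% of its values above 0 were not whole (tolerance 1e-09), among the granins only for *Vgf* in 3 wells. The submitters' processing notes name STAR 2.5.1b, featureCounts 1.5.0-p1 and mm10. The strand setting was not given in the sources used here, so *Scg3* and its overlapping neighbour cannot be told apart.

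The granins, gene lists and plate column sets were chosen with earlier results of these data known, and the spike-in limit of 30% after seeing the data. CPM was computed from gene counts without spike-ins, TPM with GENCODE M21 exon lengths; symbols matched 46488 identifiers. No well was removed. The wells are 1 sample without replicates, so no test was run. Correlations are Spearman's rho of log2(CPM + 1). Background pairs used genes with a mean of at least 10 CPM found in at least 50% of wells, and plate differences genes with a mean of at least 10 CPM. The likeness ranking and the background of the granule genes used both limits in the wells with at least 100000 gene counts. Intervals are exact Clopper-Pearson or Poisson 95% intervals and cover counting error only; a count of 0 allows 3 counts. Genes named were the granins, 7 hormones, 26 granule genes, cell type markers and the 5 genes most like each granin, of which 1 is not reported here; wells were singled out after their values were seen. Thinning drew 100000 or 10000 rounded counts per well without replacement. Doublets were not called, since 56 wells are too few. Alternatives changed the scale, denominator, detection limit, pseudocount, depth, wells and type of correlation. The plate column differences and the likeness ranking were checked on simulated data, and the other steps across genes were not. Python 3.11.15, numpy 2.4.6, scipy 1.17.1, pandas 2.3.3 and matplotlib 3.10.9 were used.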

Additional observations from a re-analysis of the deposited data

How the results depend on the processing

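Of 151 values recomputed under alternatives for the levels, shares, co-variation, plate columns, leading hormones, granule genes and likeness, 144 moved by less than the spread over wells, the interval of the share or 1.5 times the count. That spread is wide, so that a median could shift over 1.5 times within it: 7 of 20 medians did so in wells with under 30% of spike-ins and 2 of 20 in wells with at least 100000 gene counts. With under 30% the median was 130 CPM for *Chga* (from 76.7), 561 CPM for *Chgb* (from 916) and 7.64 CPM for *Vgf* (from 12.8), and where *Prl* led 81.8 CPM for *Chga* (from 32.4), 635 CPM for *Chgb* (from 1017), 48.5 CPM for *Scg3* (from 91.9) and 2.68 CPM for *Vgf* (from 11.1). The values beyond these limits are as follows. The share of wells with all 5 granins was 37.5% at a limit of 10 CPM and 1.79% at 100 CPM. The difference in *Chga* between the plate columns was -0.21 in wells with under 30% of spike-ins and -0.67 where these also had at least 100000 gene counts; the cause was not tested. Of the 25 genes named as most like a granin, 14 were named again without centring, 11 with Pearson's r and 14 in wells with under 30% of spike-ins. Among single pairs, *Chga* with *Scg2* had a rho of -0.23 in the 20 wells with 30% or more, and of the 110 values for single pairs 15 more moved by more than the SD over pairs.

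Differences between plate columns depend on the pseudocount, from 3.58 (0.1) to 1.66 (10) for *Chga* and from -4.74 to -2.0 for *Vgf*. Without C11 the difference was 2.57 for *Chga* and -3.33 for *Vgf*, and the median rho of the granin pairs was 0.34. Where *Prl* led, the medians in wells with at least 100000 gene counts were 78.8 CPM for *Chga* and 4.26 CPM for *Vgf*. Without *Prl*, *Gh* and *Pomc* in the denominator 7 of 20 medians rose by over 1.5 times, a change of scale. Low levels of *Vgf* and *Chga* are limited by depth in the 10 wells with fewer than 100000 gene counts. No paired analysis was possible because the labels give 1 group. Lists, splits and limits that follow the spike-in share were added after seeing the data.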
